A study of Homo sapiens with 4 samples.

Results

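The apelin and adrenomedullin systems are represented here by 9 genes, chosen as the genes of the 2 peptide families, their receptors and the RAMP partners of those receptors. All 9 were found by symbol among the 64252 gene rows of the count table. They are the apelin receptor gene APLNR with the ligand genes APLN and APELA, and the peptide genes ADM and ADM2 with the receptor gene CALCRL and its partners RAMP1, RAMP2 and RAMP3. The families were selected on the counts of the IRF2BP2 shRNA libraries against the scramble libraries, so the members' levels and fold changes in that comparison are a description and carry no test.

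The cells were SK-N-BE(2), an established human neuroblastoma line with amplified MYCN. They carried either a short hairpin RNA (shRNA) against IRF2BP2, a transcriptional co-regulator (2 libraries), or a scramble shRNA (2 libraries), and nothing in the labels separates the groups otherwise. The labels do not state the number of hairpins, the time after delivery, or whether a clone or a pool was used. They also do not tie replicates to separate cultures, so the p-values below reflect library-to-library spread, which may be technical alone.

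Apelin, made from APLN, and the short peptide made from APELA are both ligands of the apelin receptor, a G protein-coupled receptor that couples mainly to inhibitory G proteins. It is best known from endothelial cells and the developing heart. Adrenomedullin, a vasodilator first isolated from phaeochromocytoma, a chromaffin tumour of the same neural crest lineage as neuroblastoma, signals through the calcitonin receptor-like receptor made from CALCRL. That receptor needs a receptor activity-modifying protein (RAMP) to reach the surface, and the partner sets the ligand preference: RAMP1 gives a receptor for calcitonin gene-related peptide, while RAMP2 and RAMP3 give adrenomedullin receptors.

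The sequences shown first are the coding bases of the apelin peptide and the upstream bases of the 3 peptide genes with reads, of which APLN and ADM were lower and ADM2 higher with the IRF2BP2 shRNA. Apelin is cut from the C-terminal end of a precursor of 77 residues, and the last 39 coding bases give apelin-13, the shortest of the common active forms. They lie in the coding exon of APLN at chrX:129648629-129648667 on the minus strand (GRCh38, GENCODE release 29 transcripts).
apelin-13 coding bases: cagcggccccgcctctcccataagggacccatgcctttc
For the promoters, RefSeq sequence on GRCh38.p14 was found for 6 of the 9 genes (APLN, APELA, ADM, ADM2, CALCRL and RAMP3) and was searched over the 250 bases before each start. Capitals mark matches on either strand to GCGTG, a core of the hypoxia element, to the GC box GGGCGG, and to the TATA box TATAAA. APLN is shown at chrX:129654957-129655206 (minus strand) and ADM2 at chr22:50481293-50481542 (plus strand).
APLN promoter: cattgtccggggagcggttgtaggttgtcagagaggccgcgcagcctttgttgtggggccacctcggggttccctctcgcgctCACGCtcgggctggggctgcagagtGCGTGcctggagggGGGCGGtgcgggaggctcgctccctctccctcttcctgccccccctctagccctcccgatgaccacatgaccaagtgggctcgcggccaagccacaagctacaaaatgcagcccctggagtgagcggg
ADM2 promoter: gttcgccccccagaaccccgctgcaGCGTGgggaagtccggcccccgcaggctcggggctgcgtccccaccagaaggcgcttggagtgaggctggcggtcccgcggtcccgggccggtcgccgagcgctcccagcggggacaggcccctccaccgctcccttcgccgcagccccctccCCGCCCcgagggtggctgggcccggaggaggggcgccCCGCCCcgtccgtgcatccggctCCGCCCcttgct
ADM, where a longer GENCODE transcript runs through the same bases, is shown by 2 windows of 30 bases, at chr11:10304961-10304990 and chr11:10305033-10305062 (plus strand). By coordinates, 174 bases of the APELA window and 208 bases of the CALCRL window also lie inside the GENCODE gene, and none of the APLN, ADM2 or RAMP3 windows do.
ADM hypoxia core window: agcaggagcgcGCGTGgctgaggaaagaaa
ADM TATA window: ccacccgtgcgctTATAAAgcacaggaacc

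GCGTG stood in 4 of the 6 windows of 250 bases (APLN, ADM, ADM2 and RAMP3), against 32.2% of all 35116 RefSeq promoter windows of that length. The GC box stood in the same 4 genes, against 42.6% of all windows. Both motifs are rich in G and C, and so were these windows. G and C made up 67.6% of the APLN, 68.0% of the ADM, 78.8% of the ADM2 and 75.6% of the RAMP3 window. They made up 45.2% for APELA and 44.0% for CALCRL, against a median of 58% over all windows. The part of base composition in these matches was not tested. The TATA box stood only in ADM of the 6, from 27 to 22 bases before the start, against 10.7% of all. ACGTG, the other spelling of the hypoxia core, was found in APELA only (18.5% of all windows), and TGATGNAA, the amino acid response element, in CALCRL only, from 75 to 68 bases before the RefSeq start and inside the GENCODE gene (3.14% of all). The E-box CACGTG, which contains ACGTG, the AP-1 site TGANTCA, the cAMP response element TGACGTCA and an interferon regulatory factor element were found in none of the 6. A match is a description of letters, and no match says only that those letters are not in the window.

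Total counts lay between 30847699 and 34684651 per library. IRF2BP2, the gene targeted, had 89.6 and 87.5 CPM (the count scaled to a common library size) in the IRF2BP2 shRNA libraries, against 243 and 238 CPM in the scramble libraries. The share of mitochondrially encoded reads was 6.42% in both IRF2BP2 shRNA libraries, against 7.27% and 7.10% in the scramble libraries, and its part in the results was not tested. All 10 neuroblastoma markers were measured well enough to be tested, and TH, the rate-limiting enzyme of catecholamine synthesis, had 111.5 ± 0.25 CPM with the IRF2BP2 shRNA and 197 ± 6.59 CPM with scramble (SD, n = 2 each).

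APLNR, the apelin receptor gene, was the member with the largest difference. The GRCh38 annotation places it at chr11:57233577-57237314 (minus strand). Its counts were 2275 and 2143 in the IRF2BP2 shRNA libraries, against 90 and 56 in the scramble libraries. These are levels of 71.1 and 66.9 CPM with the IRF2BP2 shRNA, against 2.59 and 1.82 CPM with scramble. Both IRF2BP2 shRNA libraries lay far above both scramble libraries. The fold change was 31.0 (log2 4.95, standard error 0.13), and 17 of the 19093 genes tested had a larger positive log2 fold change. In bulk RNA, more cells with the transcript and more transcript per cell cannot be told apart.

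The ligand genes of that receptor gave few reads or none. APLN (chrX:129645259-129654937, minus strand) had 13 and 11 counts with the IRF2BP2 shRNA, against 25 and 43 counts with scramble. Its level was 0.41 and 0.34 CPM with the IRF2BP2 shRNA, against 0.72 and 1.40 CPM with scramble, and the groups did not overlap. The 2 scramble libraries lay further from each other than the lower of them lay from either IRF2BP2 shRNA library. The log2 fold change was -1.48 with a standard error of 0.48, and it came to -0.93 without scramble replicate 2 and -1.88 without scramble replicate 1. APELA, the second ligand (chr4:164877004-164898965, plus strand), had no read in any library, which allows at most 0.0941 and 0.0935 CPM in the IRF2BP2 shRNA libraries and 0.0865 and 0.0973 CPM in the scramble libraries at 3 counts each. These limits cover counting error only.

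ADM, the adrenomedullin gene (chr11:10304680-10307397, plus strand), was the member with the most negative log2 fold change. ADM counts were 86 and 102 with the IRF2BP2 shRNA, against 936 and 975 with scramble, which is 2.69 and 3.18 CPM with the IRF2BP2 shRNA, against 26.9 and 31.7 CPM with scramble. The groups lay far apart, with a level 9.98-fold lower in the IRF2BP2 shRNA libraries (log2 fold change -3.32, standard error 0.14). The lowest log2 fold change of ADM over all alternative settings was -3.44 and the highest -3.19.

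ADM2 codes for intermedin, a relative of adrenomedullin that acts through the same receptors, and it differed the other way. Its position is chr22:50481556-50486440 (plus strand). ADM2 had 114 and 142 counts with the IRF2BP2 shRNA, against 67 and 54 counts with scramble. Its level was 3.56 and 4.43 CPM with the IRF2BP2 shRNA, against 1.93 and 1.76 CPM with scramble, a log2 fold change of 1.11 with a standard error of 0.24. Both IRF2BP2 shRNA libraries were above both scramble libraries, and the gap was wider than the spread within either pair.

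CALCRL, the shared receptor of adrenomedullin and intermedin, gave only 36 and 63 counts with the IRF2BP2 shRNA, against 15 and 32 counts with scramble. Its position is chr2:187343129-187448460 (minus strand). Inside its introns, on the opposite strand and with no exon overlap, lie AC007319.1 (1 and 0 counts with the IRF2BP2 shRNA, 5 and 6 with scramble) and the pseudogene GAPDHP59 (0 and 0 counts with the IRF2BP2 shRNA, 4 and 3 with scramble). Its level was 1.13 and 1.97 CPM with the IRF2BP2 shRNA, against 0.43 and 1.04 CPM with scramble, so the groups were barely separate and the libraries within each group lay further apart than the groups did. The log2 fold change was 1.08 with a standard error of 0.46. It was 1.83 without scramble replicate 2 and 0.58 without scramble replicate 1, and 1.43 and 0.63 without IRF2BP2 shRNA replicates 1 and 2, so each library moved it. The edgeR rule used for all genes left it uncalled, but called it when either scramble replicate 2 or IRF2BP2 shRNA replicate 1 was left out.

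RAMP1 was the most abundant member per length in both groups. Its position is chr2:237858893-237912114 (plus strand). RAMP1 counts were 1837 and 1805 with the IRF2BP2 shRNA, against 3750 and 3621 with scramble. In CPM the level was 57.4 and 56.3 with the IRF2BP2 shRNA, against 108 and 118 with scramble, 1.98-fold lower (log2 fold change -0.99, standard error 0.05). The pairs were tight and well separated.

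RAMP2 (chr17:42758447-42763041, plus strand) had 215 and 230 counts with the IRF2BP2 shRNA, against 243 and 225 counts with scramble. In CPM the libraries of the 2 groups overlapped. The log2 fold change was -0.04 with a standard error of 0.16. Its exons overlap those of RAMP2-AS1 on the opposite strand, which had 130 and 137 counts with the IRF2BP2 shRNA and 173 and 157 with scramble. The library kit did not mark strand, so reads of this pair cannot be told apart. No other member shares exon bases with another annotated gene. RAMP3 (chr7:45157791-45186302, plus strand) had no read in any library, with the same limits as APELA.

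**Figure D1:**
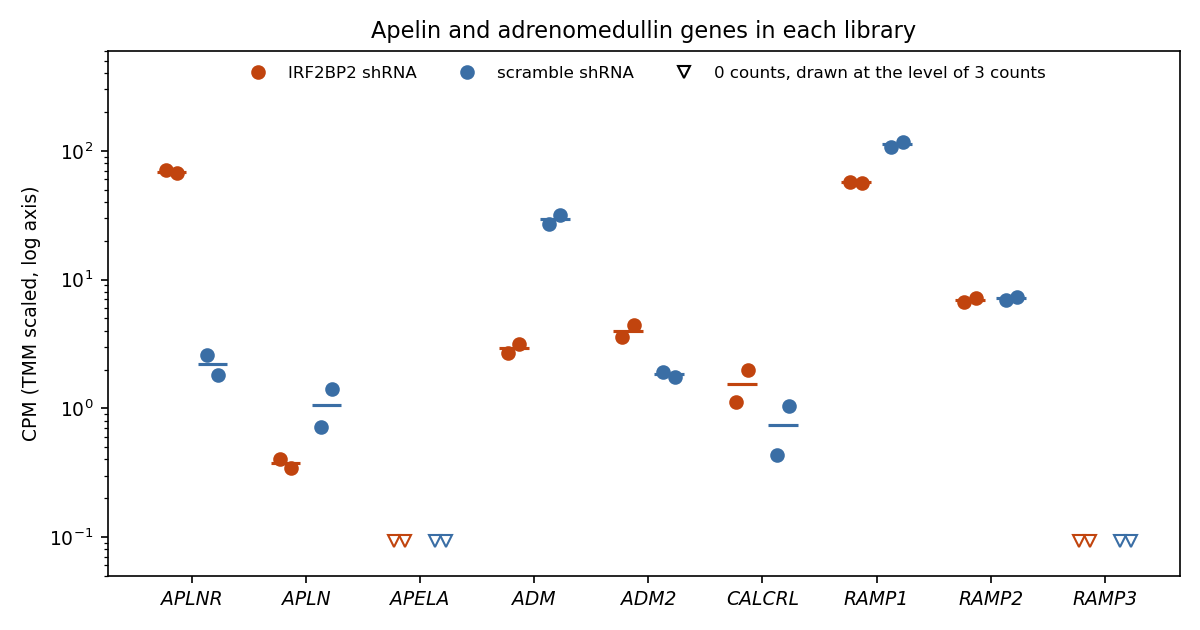
Level of each of the 9 genes in each library, in CPM on a log axis, with IRF2BP2 shRNA libraries in orange and scramble libraries in blue; bars are means of 2 libraries and open triangles are libraries with 0 counts, drawn at the level of 3 counts. APLNR and ADM2 are higher and ADM, APLN and RAMP1 lower in both IRF2BP2 shRNA libraries, CALCRL is barely separate, RAMP2 overlaps, and APELA and RAMP3 have no reads.

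Of the 9 members, 7 passed the filter on low counts. Of these 7, the edgeR rule used for all genes (adjusted p under 0.05) called 2 higher (APLNR, ADM2) and 3 lower (APLN, ADM, RAMP1), and left CALCRL and RAMP2 uncalled. Over all 19093 genes tested the same rule called 42.0%, with 20.6% higher and 21.4% lower. In 6 of the 7 the groups did not overlap (3 above and 3 below scramble), against 70.4% of all genes tested, with 34.4% above and 36.0% below. The median log2 fold change of the 7 was -0.04, against -0.01 over all genes tested. Because the members were chosen with this comparison known, nothing is read from these shares. The APLN call was lost in 6 of its 10 alternative settings, among them DESeq2, limma voom and leaving out any library but scramble replicate 1, while the APLNR, ADM and RAMP1 calls held in all 11 and the ADM2 call in all 10 that tested it.

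**Figure D2:**
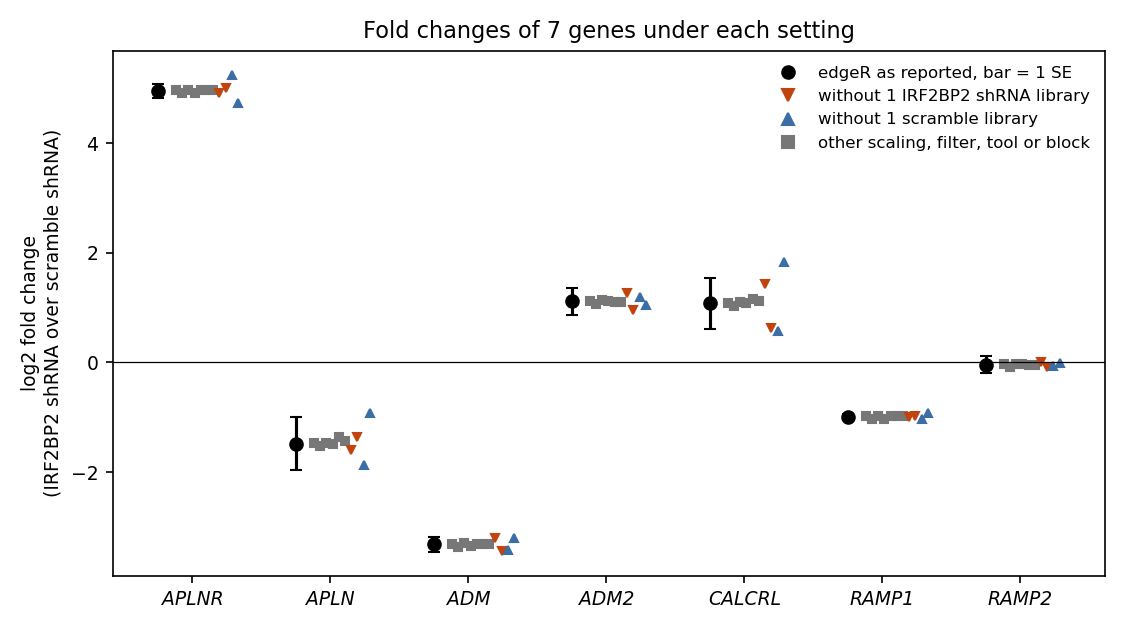
Log2 fold change (IRF2BP2 shRNA over scramble shRNA) of the 7 tested genes as reported, with 1 standard error, and under each alternative setting. APLNR stays between 4.73 and 5.25, ADM between -3.44 and -3.19 and RAMP1 between -1.04 and -0.92, while APLN (-1.88 to -0.93) and CALCRL (0.58 to 1.83) spread widely when a single library is left out.

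The reads counted on these genes summed to 143 and 140 CPM with the IRF2BP2 shRNA, somewhat below the 148 and 163 CPM with scramble. They were also made up differently. APLNR held 49.7% (Wilson 95% interval 48.3 to 51.2%) and 47.7% (46.2 to 49.1%) of the members' reads in the IRF2BP2 shRNA libraries, against 1.76% (1.43 to 2.15%) and 1.12% (0.86 to 1.45%) in the scramble libraries. ADM held 1.88% (1.52 to 2.32%) and 2.27% (1.87 to 2.75%) with the IRF2BP2 shRNA, against 18.3% (17.2 to 19.3%) and 19.5% (18.4 to 20.6%) with scramble. The share of RAMP1 was 40.1% in both IRF2BP2 shRNA libraries, against 73.2% and 72.3% in the scramble libraries.

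**Figure D3:**
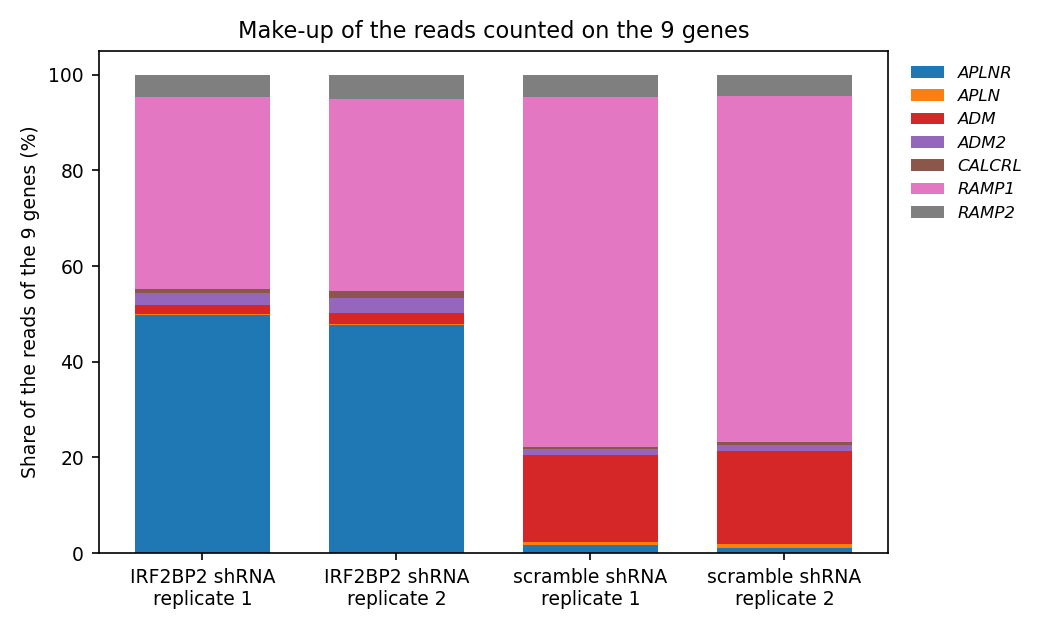
Share of the reads of the 9 genes, in percent, that fell on each gene in each library, with the IRF2BP2 shRNA libraries on the left. APLNR (blue) fills 49.7% and 47.7% of the bar with the IRF2BP2 shRNA and 1.76% and 1.12% with scramble, where RAMP1 (pink) and ADM (red) fill most of it.

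The read shares above take no account of gene length. To rank the members, their levels were set side by side per length, as CPM per kilobase of annotated exon. Exon lengths came from GENCODE release 29, whose exons may differ from those the authors counted. With the IRF2BP2 shRNA the order was RAMP1 (46.1), APLNR (18.5), RAMP2 (6.05), ADM (1.08), ADM2 (0.93), CALCRL (0.25) and APLN (0.12). With scramble it was RAMP1 (91.5), ADM (10.8), RAMP2 (6.24), APLNR (0.59), ADM2 (0.43), APLN (0.33) and CALCRL (0.12). Neighbours whose ranges over the libraries overlapped were ADM and ADM2 with the IRF2BP2 shRNA, and ADM2 and APLN with scramble.

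Ratios within a library followed from these levels. The level of ADM per length was 1.19 and 1.13 times that of ADM2 in the IRF2BP2 shRNA libraries, against 22.0 and 28.4 times in the scramble libraries. RAMP1 exceeded RAMP2 by 7.95 and 7.30 times per length with the IRF2BP2 shRNA, against 14.4 and 15.0 times with scramble. The apelin receptor exceeded its ligand APLN by 150 and 167 times with the IRF2BP2 shRNA, against 3.09 and 1.12 times with scramble, on the few APLN reads given above. RAMP2, whose reads cannot be told apart from those of RAMP2-AS1, exceeded CALCRL by 32.0 and 19.5 times per length with the IRF2BP2 shRNA, against 86.7 and 37.6 times with scramble.

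The genes around the members were described next, since the rule did not use position. For each of the 7 tested members the nearest tested protein-coding gene on either side was taken, 14 genes in all, a choice made by position after the members' values were known. Of these 14, 4 rose, 5 fell and 5 were not called by edgeR, against 42.0% called over all genes, and their median log2 fold change was 0.05. Both neighbours of APLNR rose: LRRC55, 41.9 kb to the left, had 2.00 CPM with the IRF2BP2 shRNA and 0.47 CPM with scramble (log2 fold change 2.08, edgeR adjusted p = 8.01e-04). TNKS1BP1, 62.3 kb to the right, had 103 CPM with the IRF2BP2 shRNA and 48.3 CPM with scramble (1.10, edgeR adjusted p = 2.64e-08). Both neighbours of ADM fell: AMPD3, an AMP deaminase gene that begins 0.92 kb beyond the end of ADM, had 0.86 CPM with the IRF2BP2 shRNA and 3.81 CPM with scramble (-2.14, edgeR adjusted p = 6.58e-05), and SBF2 fell by 0.73 on the log2 scale (edgeR adjusted p = 1.39e-06).

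Around APLN, XPNPEP2, an aminopeptidase gene, fell by 1.67 on the log2 scale (edgeR adjusted p = 4.63e-05). OCRL, on the other side of APLN, fell by 0.21 (edgeR adjusted p = 0.0115), a call lost in 2 of 11 alternative settings. Neither neighbour of ADM2 or RAMP1 was called, with SBF1 at 0.10, LMF2 at -0.00405, RBM44 at 0.63 and UBE2F at 0.18 on the log2 scale. Next to CALCRL, TFPI, the gene of a coagulation inhibitor, rose to 1.83 CPM with the IRF2BP2 shRNA, against 0.636 CPM with scramble (edgeR adjusted p = 0.0281, lost in 4 of 10 alternative settings), while FAM171B (-0.08) was not called. RAMP2 has EZH1 (-0.59, edgeR adjusted p = 0.00105) on its left and VPS25 (0.15, edgeR adjusted p = 0.0216, lost in 5 of 11 alternative settings) on its right.

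**Figure D4:**
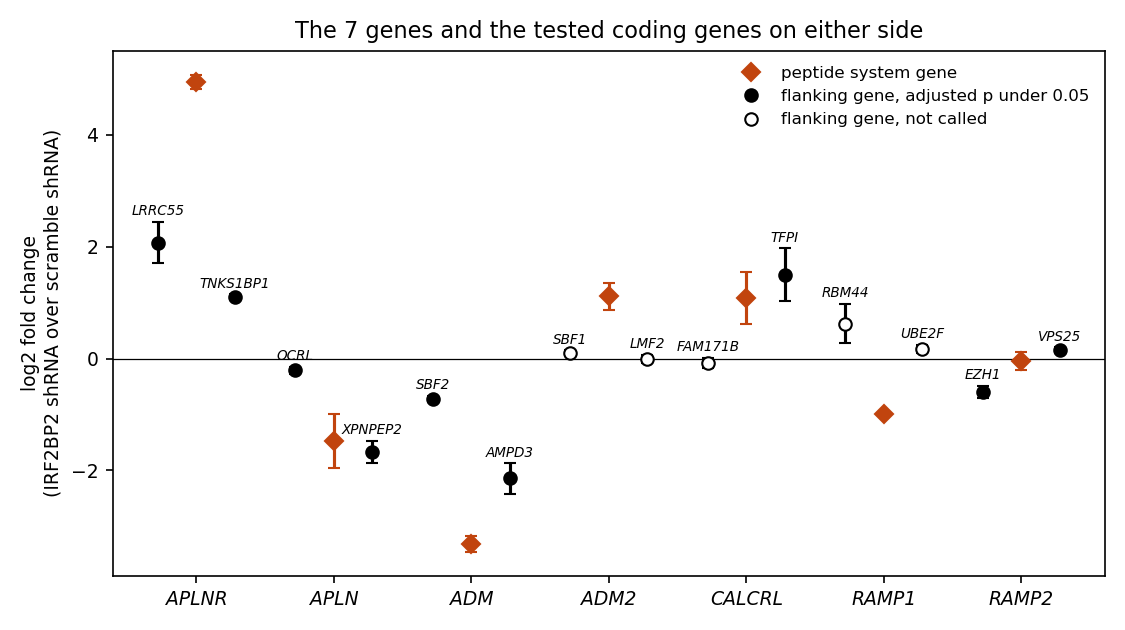
Log2 fold change (IRF2BP2 shRNA over scramble shRNA, bars 1 standard error) of the 7 tested members, as orange diamonds, and of the nearest tested coding gene on each side, as circles filled where the adjusted p was under 0.05. LRRC55 and TNKS1BP1 lie above 0 beside APLNR, and SBF2 and AMPD3 lie below 0 beside ADM.

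By a rule of likeness over the 4 libraries, the Euclidean distance between log2 CPM values centred on each gene's mean, the 5 closest of 13604 protein-coding genes to APLNR were IGFBP3 (distance 0.32), BMP6 (0.43), SMIM32 (0.76), SAMD5 (0.80) and TDO2 (0.89). IGFBP3, which binds insulin-like growth factors, had 97.6 CPM with the IRF2BP2 shRNA and 2.53 CPM with scramble. TDO2, a tryptophan dioxygenase gene, had 1.03 CPM with the IRF2BP2 shRNA and no count with scramble, at least 11.2-fold higher against a floor of 3 counts per library. Closest to ADM were HLA-DOA (0.06), SERPING1 (0.20), PRR36 (0.28), SYTL4 (0.30) and SORBS2 (0.31). SYTL4, a granule-docking protein gene, had 4.92 CPM with the IRF2BP2 shRNA and 42.1 CPM with scramble. With 2 groups of 2 libraries this likeness mostly reflects the size of the group difference. The log2 CPM values carried a prior count of 2, which narrows the differences of genes with few counts. Such genes here were TDO2, HLA-DOA (6 and 8 counts with the IRF2BP2 shRNA) and SERPING1 (12 and 12 counts with the IRF2BP2 shRNA), among others.

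The other genes of the 2 systems were taken from lists of their roles, which were also drawn up with earlier results of these data known. Their calls are those of the edgeR fit over all genes and are not independent evidence of a list's direction. That fit called 42.0% of all genes tested, with 20.6% higher and 21.4% lower. Nothing is read from the number of calls in a list. Among 6 genes listed as calcitonin family relatives, 3 were tested and 0 were called (1 at an unadjusted p under 0.05, and 0 by DESeq2 or limma voom). CALCB was at 1.63 on the log2 scale (standard error 1.06), ADM5 at 0.60 and CRCP at -0.12. CRCP, the gene with that unadjusted p, codes for a receptor component and not for a peptide or receptor of the family. CALCR and IAPP had no reads. The genes of calcitonin gene-related peptide, the ligand of CALCRL with RAMP1, gave few reads: CALCA had 0 counts in both IRF2BP2 shRNA libraries, against 2 and 0 counts in the scramble libraries, and CALCB had 24 and 23 counts in the IRF2BP2 shRNA libraries, against 0 and 15 counts in the scramble libraries.

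Genes listed for the maturation of peptide precursors changed in both directions, with 2 of 10 tested genes higher, 5 lower and 3 not called. Among the 5 lower were SCG5 (-1.19 on the log2 scale) and PCSK1N (-0.56), which code for proteins that bind convertases and not for enzymes. Over all genes tested 42.0% were called. The median log2 fold change of the 10 was -0.70, against -0.01 over all genes. FURIN, a proprotein convertase of the secretory pathway, rose to 55.6 ± 3.28 CPM with the IRF2BP2 shRNA, against 25.8 ± 3.44 CPM with scramble (SD, n = 2 each; edgeR adjusted p = 5.16e-06). PAM, the enzyme that adds the C-terminal amide adrenomedullin needs for activity, rose to 159 ± 0.87 CPM, against 98.1 ± 3.78 CPM with scramble (edgeR adjusted p = 1.49e-07). The carboxypeptidases of granules and the secretory pathway fell. CPE had 111 ± 2.08 CPM with the IRF2BP2 shRNA and 277 ± 4.33 CPM with scramble (edgeR adjusted p = 1.19e-09), and CPD fell by 1.53 on the log2 scale (edgeR adjusted p = 7.87e-08).

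Genes that clear these peptides gave 2 calls upward and 3 downward among 7 tested, against 42.0% called over all genes (median log2 fold change 0.04). ACE, angiotensin-converting enzyme, had 4.64 ± 0.55 CPM with the IRF2BP2 shRNA and 11.5 ± 0.07 CPM with scramble (edgeR adjusted p = 4.42e-05). The endothelin-converting enzyme gene ECE1 fell by 0.47 (edgeR adjusted p = 7.42e-06) and the peptidase gene PREP by 0.63 (edgeR adjusted p = 8.71e-07), while NLN, neurolysin, rose by 0.25 (edgeR adjusted p = 0.00188). MME, a peptidase known to cut apelin, and the scavenger receptor gene GPR182 had too few reads to be tested, and ACKR3, whose product binds adrenomedullin, had none.

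For receptor coupling and shut-off, edgeR called 9 genes higher and 13 lower of 27 tested, against 42.0% called over all genes. Their median log2 fold change was -0.13. GNA11 rose by 0.75 on the log2 scale (edgeR adjusted p = 6.54e-08) while GNAQ, which codes for the closely related G protein subunit, fell by 0.86 (edgeR adjusted p = 9.54e-08). Of the inhibitory-class subunits, GNAO1, abundant in neurons, fell by 0.76 (edgeR adjusted p = 1.46e-07), while GNAI1 rose by 0.31 (edgeR adjusted p = 5.62e-04). GNAI2 rose by 0.21 (edgeR adjusted p = 0.0137, lost without IRF2BP2 shRNA replicate 2) and GNAI3 fell by 0.13 (edgeR adjusted p = 0.0193, lost in 5 of 11 alternative settings). GRK5, a kinase that desensitises receptors, had 13.1 ± 1.38 CPM with the IRF2BP2 shRNA and 39.1 ± 2.65 CPM with scramble (edgeR adjusted p = 2.42e-07).

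Among 11 tested known regulators of these genes, edgeR called 5 higher and 2 lower, against 42.0% called over all genes (median log2 fold change 0.16). HIF1A, the oxygen-regulated factor subunit known to induce ADM, rose to 472 ± 6.45 CPM with the IRF2BP2 shRNA, against 273 ± 2.92 CPM with scramble (edgeR adjusted p = 3.52e-08), while ADM was lower. EGLN3, an oxygen-sensing hydroxylase gene and itself a hypoxia target, rose by 1.07 on the log2 scale (edgeR adjusted p = 1.34e-06). EPAS1, which codes for the related factor HIF-2 alpha, was low and fell to 1.92 ± 0.02 CPM, against 5.13 ± 0.57 CPM with scramble (edgeR adjusted p = 3.58e-04). DDIT3, a stress-induced factor, rose by 0.92 (edgeR adjusted p = 2.89e-04), and ATF4, which is known to induce ADM2 under stress, was at -0.04 and not called (edgeR adjusted p = 0.527). These are RNA levels and do not measure protein or activity. The part of any regulator in the levels of the peptide system genes was not tested.

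Other vasoactive peptide systems gave 4 calls upward and 6 downward among 15 tested genes, against 42.0% called over all genes (median log2 fold change -0.45). The endothelin receptor gene EDNRA rose and the endothelin ligand gene EDN3 fell. EDNRA had 12.4 ± 0.34 CPM with the IRF2BP2 shRNA and 2.90 ± 0.64 CPM with scramble (edgeR adjusted p = 3.83e-06). EDN3 had 1.72 ± 0.48 CPM with the IRF2BP2 shRNA and 14.2 ± 0.78 CPM with scramble (edgeR adjusted p = 4.23e-07). VIP, vasoactive intestinal peptide, fell by 2.30 on the log2 scale (edgeR adjusted p = 1.54e-07), and AGTRAP, which codes for a protein bound to an angiotensin receptor, rose by 0.83 (edgeR adjusted p = 4.71e-06).

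**Figure D5:**
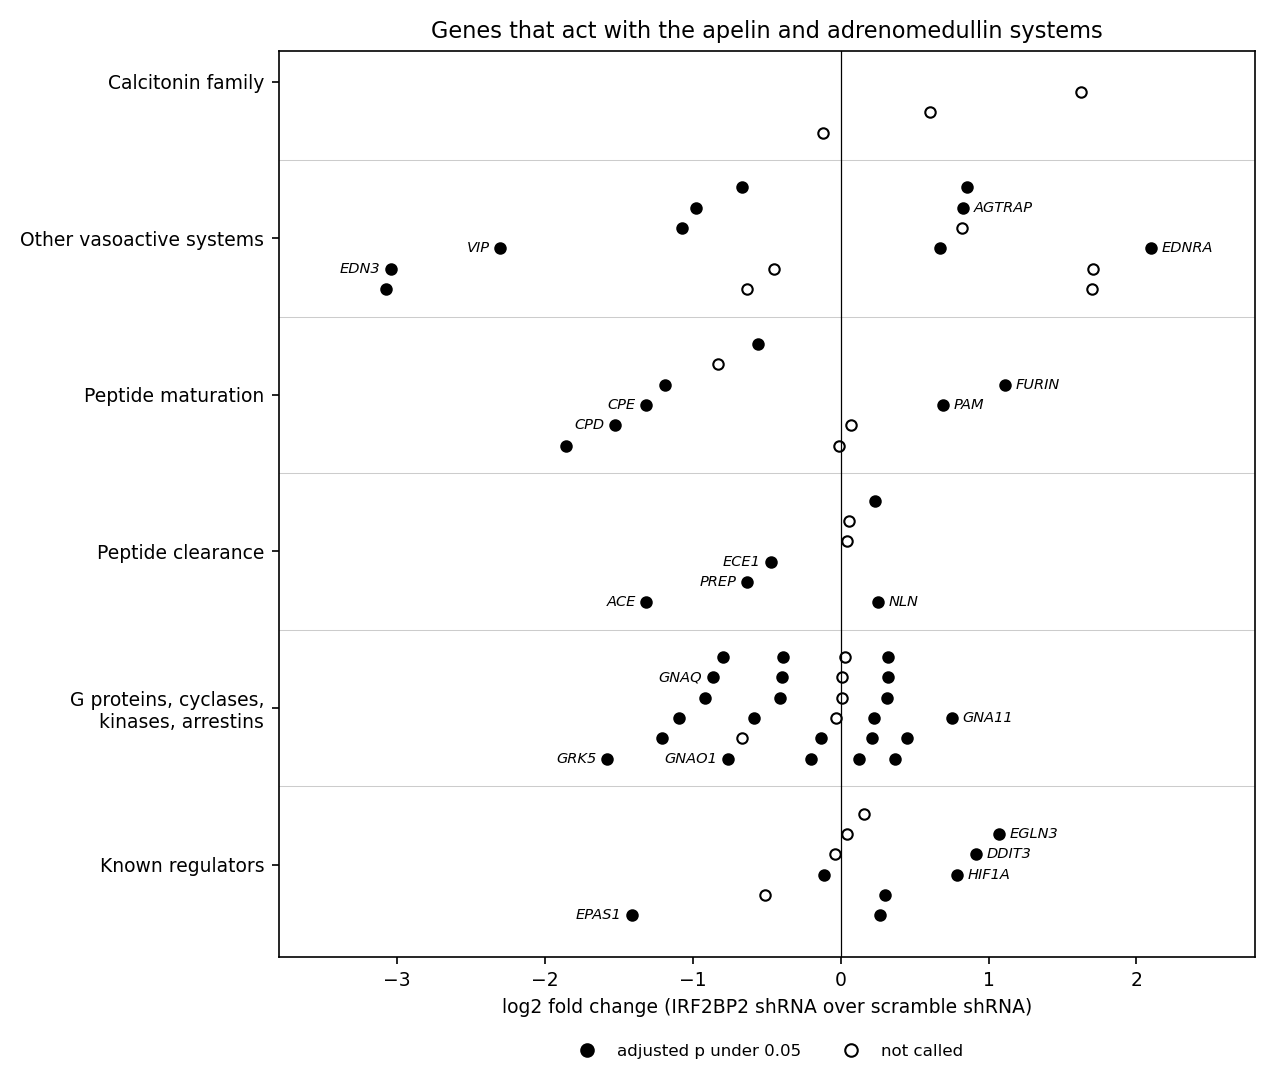
Log2 fold change (IRF2BP2 shRNA over scramble shRNA) of the tested genes of 6 lists that act with or beside the 2 peptide systems, filled where the edgeR adjusted p was under 0.05, with up to 4 called genes named per list. Calls fall on both sides of 0 in 5 of the lists, and the calcitonin family list has none.

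Because APLNR, CALCRL and RAMP2 are well known from endothelium, markers of other cell types were read beside them. The edgeR fit called 42.0% of all genes tested, the share to set beside the marker calls. Of 17 endothelial markers 8 were tested, with 3 higher, 1 lower and 4 not called, and their summed level was 66.4 and 71.4 CPM with the IRF2BP2 shRNA, against 126 and 123 CPM with scramble. PROX1 made up most of that sum. The other markers summed to 26.7 and 25.7 CPM with the IRF2BP2 shRNA, against 6.42 and 7.55 CPM with scramble, the opposite direction. That difference in turn rested largely on EMCN, at 19.3 and 19.3 CPM with the IRF2BP2 shRNA, against 1.27 and 1.63 CPM with scramble. PECAM1 and SOX17 had no reads, CDH5 had 0 and 2 counts with the IRF2BP2 shRNA and 8 and 20 with scramble, and KDR and TEK had at most 14 counts in a library. EMCN rose to 19.3 ± 0.02 CPM with the IRF2BP2 shRNA, against 1.45 ± 0.25 CPM with scramble (edgeR adjusted p = 1.88e-08). SOX18 rose to 2.91 CPM with the IRF2BP2 shRNA, against 1.03 CPM with scramble (edgeR adjusted p = 0.00886), FLT1 was at least 5.09-fold higher against a floor of 3 counts per library, and PROX1 fell by 1.46 (edgeR adjusted p = 4.79e-08).

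In the marker lists of the other cell types, 9 of 10 stromal markers were tested and all 9 were called, 3 higher and 6 lower. The samples were of a cell line, and a marker's level here does not show that cells of that type were present. Over all genes tested 42.0% were called. Their summed level was 2165 and 2108 CPM with the IRF2BP2 shRNA, against 2894 and 2798 CPM with scramble, and without the pericyte gene RGS5 it was 462 and 457 CPM with the IRF2BP2 shRNA, against 566 and 551 CPM with scramble. COL1A1 (2.17, edgeR adjusted p = 4.83e-08) and COL3A1 (1.49, edgeR adjusted p = 1.23e-07) rose, and LUM (-1.03, edgeR adjusted p = 4.35e-08) and RGS5 (-0.45, edgeR adjusted p = 9.28e-07) fell, on the log2 scale. Of 7 Schwann cell markers 3 were tested and 1 was called, higher, and of 7 leukocyte markers 3 were tested and only PTPRC was called (-0.87, edgeR adjusted p = 0.0185). The Schwann list gave no call with DESeq2 or without IRF2BP2 shRNA replicate 1, IRF2BP2 shRNA replicate 2 or scramble replicate 1, and the PTPRC call was lost without IRF2BP2 shRNA replicate 2 or scramble replicate 2. Their summed levels were 2.88 and 2.59 CPM with the IRF2BP2 shRNA against 1.99 and 1.98 CPM with scramble for the Schwann list, and 4.56 and 4.25 against 4.92 and 7.74 CPM for the leukocyte list. Of the 10 neuroblastoma markers 1 rose, 8 fell and 1 was not called. The summed level of this list overlapped, at 8903 and 9021 CPM with the IRF2BP2 shRNA, against 8724 and 9086 CPM with scramble. MYCN, the marker that rose, made up most of it (log2 fold change 0.39, edgeR adjusted p = 5.09e-07). Without MYCN the sum was 1836 and 1854 CPM with the IRF2BP2 shRNA, against 3368 and 3575 CPM with scramble. STMN2 (-1.99, edgeR adjusted p = 3.14e-11), TH (-0.82, edgeR adjusted p = 4.10e-08) and DBH (-5.20, edgeR adjusted p = 5.51e-08) fell. The part of these marker changes in the levels of the peptide system genes was not tested.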

How the data were processed

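RNA sequencing of 4 libraries was analysed. The authors deposited raw counts per Ensembl gene, 1 column per library; reads had been aligned with HISAT2 2.2.0 to hg38, per the submitters' processing notes, and the read counter and its annotation are not given in any source used here. Columns named NC were taken as scramble, the only other group, since no label explains that name. Symbols were found for 40995 of 64252 identifiers; identifiers without one held 2.40 to 2.59% of a library's counts and stayed in the totals. Positions and exon lengths were read from GENCODE 29, which held 56591 identifiers.

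Counts were tested with edgeR 4.0.16 (R 4.3.3): filterByExpr by group, TMM scaling, robust quasi-likelihood F-test, two-sided, Benjamini-Hochberg adjustment over 19093 genes, threshold 0.05. A log2 fold change has IRF2BP2 shRNA on top; a standard error is the log2 fold change over the square root of F. CPM are TMM scaled. Replicates differed beyond sampling noise (chi-square per degree of freedom 5.26 for IRF2BP2 shRNA, 7.01 for scramble), and totals of 30847699 to 34684651 counts per library set the precision, with Wilson 95% intervals on shares covering counting error only. The procedure was tested on simulated counts with a fixed spread between replicates and far fewer changed genes than were called here. That test does not show how the procedure performs with this many changes.

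Alternatives were other scalings, filters, DESeq2 1.42.0, limma voom 3.58.1, a replicate block and leaving out each library. The members, the 11 other lists (146 genes) and the tests were chosen with earlier results of these data known. Named were all members, IRF2BP2, up to 4 called genes with the smallest p per list, the 5 genes nearest in pattern to APLNR and to the member that fell most, and overlapping antisense genes. Other genes, including flanking genes and list genes given for their role, were chosen after values were seen. Some genes that the naming rule selects are not reported here.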

Additional observations from a re-analysis of the deposited data

How the results depend on the processing

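The direction of APLNR, ADM, ADM2, RAMP1, APLN and CALCRL held under every alternative run that tested them (APLN call lost in 6 of 10; CALCRL called in 3 of 10, with adjusted p = 0.0411 with the replicate block). Leaving out each library moved RAMP2 between -0.0870 and 0.00828 (positive without IRF2BP2 shRNA replicate 1). LMF2 turned to 0.00439 with DESeq2 size factors, 0.0112 with no filter, 0.00436 with DESeq2, and lay between -0.0822 and 0.0772 without each library; FAM171B lay between -0.156 and 0.0144. Flanking genes were added after seeing the data. With a mean of at least 10 CPM fewer genes were tested, and the calls were 3 of 3 members, 5 of 5 other vasoactive genes, 2 endothelial, 1 calcitonin family (also 1 with upper quartile scaling), 0 Schwann, 0 leukocyte and 4 of 9 flanking genes. DESeq2 called 0 Schwann markers. Leaving out each library gave 6412 to 7477 calls over all genes, 4 to 5 members, 0 to 2 calcitonin family genes (2 without scramble replicate 2), 3 to 5 endothelial, 0 to 1 Schwann, 0 to 1 leukocyte and 7 to 8 flanking genes; the cause was not tested. These fits leave 1 library in a group, which is assumed to vary like the other group. Replicate numbers are shared by the groups, with a correlation of 0.31 between same-numbered deviations over 10382 genes, but nothing else pairs them. With the replicate number as a block 7902 genes were called, against 8016 without it, and 6 of 7 members, against 5 without it, with CALCRL added. Of 629 other results for single named genes, 604 kept direction and call, 17 lost the call and 2 gained it. APLN and CALCRL rest on 11 to 63 counts per library.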
